A study of Mus musculus with 10 samples.

Results

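The 10 genes described here encode ETS transcription factors of endothelium: Erg, Fli1, Ets1, Ets2, Elk3, Elf1, Elf4, Etv2, Etv6 and Gabpa. They were taken by platform gene symbol, and each was read by 1 feature, so that the members make up 10 of 23111 named genes on the arrays. The arrays measured total RNA of bEnd3, an immortalised line of mouse brain endothelial cells. The cells were transduced with a lentivirus driven by the EF1α promoter and selected with puromycin. In the 5 Gata4 samples the virus carried a codon-optimised mouse Gata4 cDNA followed by IRES, mCherry and the puromycin resistance gene. In the 5 empty vector (EV) samples it carried the IRES, mCherry and resistance parts without the cDNA, so vector, reporter and selection were common to both groups. All samples are of 1 cell line, and the labels call them biological replicates without saying whether each was transduced separately. The p-values therefore measure the spread between these samples, which may be technical.

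ETS factors share a winged helix-turn-helix domain, the ETS domain, that binds DNA around a GGAA core. ERG, FLI1, ETS1 and others act together in endothelium, where many promoters and enhancers of endothelial genes carry ETS sites. Most family members activate transcription, while some, such as ETV6, repress it, and ETS1, ETS2 and the ELK proteins are phosphorylated by MAP kinases of the ERK pathway. The comparison of Gata4 with EV samples asks how the transcripts of these factors differ when GATA4, a zinc finger factor of heart and liver endothelium, is added to brain endothelial cells.

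Of the 10 members, 5 were higher and 1 was lower in the Gata4 samples at an adjusted p under 0.05 (limma with Benjamini-Hochberg adjustment over all 23111 genes). Ets2, Ets1, Elf1, Etv6 and Fli1 rose by 0.32 to 0.88 on the log2 scale, which is 1.25-fold to 1.84-fold. Elf4 fell by 0.58, or 1.5-fold. Elk3, Gabpa, Erg and Etv2 did not pass the test, with log2 differences between -0.12 and 0.14. Across all genes 25.6% passed, 12.4% higher and 13.2% lower. Among the genes whose mean level lay above the median of all genes, where 9 of the 10 members lie, 46.0% passed. The members' median difference was 0.23, against -0.01 for all genes. Their median absolute difference was 0.34, against 0.10 for all genes and 0.19 for the genes above the median level. The groups did not overlap for the same 6 members, 5 with higher and 1 with lower values, where 21.1% of all genes did not overlap (10.5% higher and 10.5% lower). The share without overlap among genes above the median level is not given here.

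**Figure D1:**
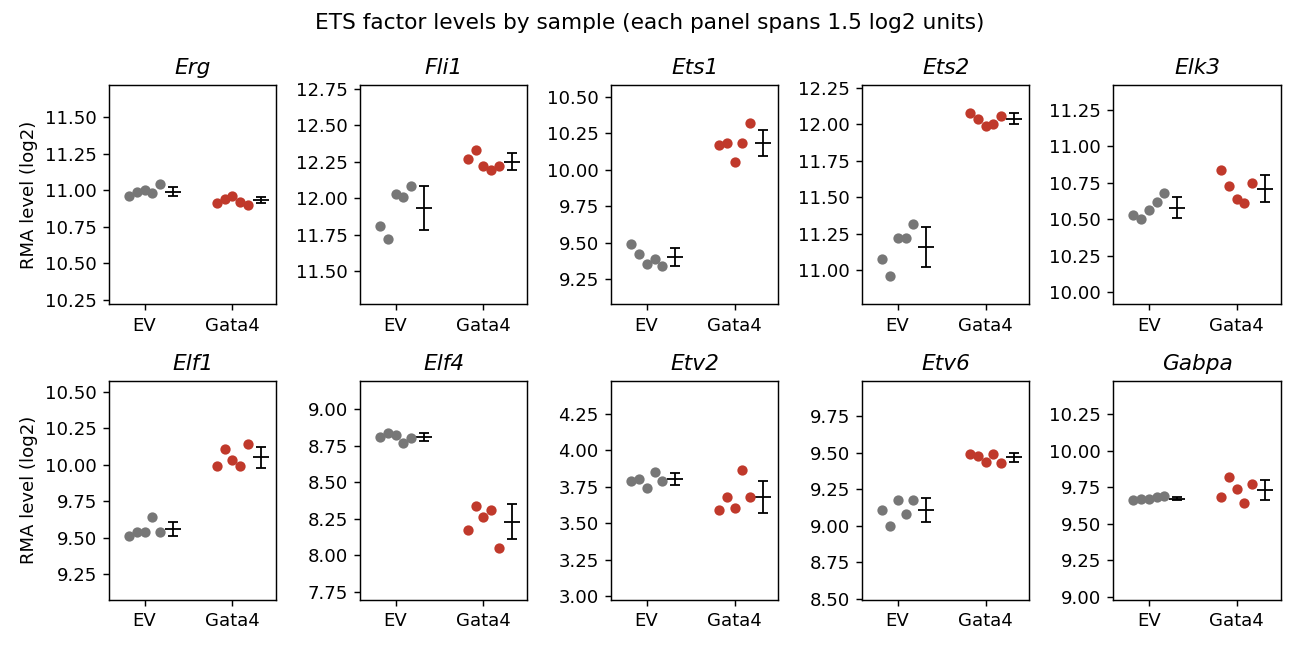
RMA level (log2) of each ETS factor in the 5 EV (grey) and 5 Gata4 (red) samples, with the mean and SD of each group in black; every panel spans 1.5 log2 units. The groups are apart for Fli1, Ets1, Ets2, Elf1, Elf4 and Etv6, and share values or ranges for Erg, Elk3, Etv2 and Gabpa.

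Several facts of the whole series bear on these values. The levels are log2 values that the authors made with RMA, which gives all arrays 1 distribution, so each difference is relative to the other genes. On the second principal component (5.26% of the variance) EV samples 1 and 2 lay at -12.8 and -14.4, apart from EV samples 3 to 5 at 5.55 to 13.3. Their part in the results was tested by leaving both out, and values without them stand beside the members and pairs they move most. Among other named genes, the differences without them were -1.24 for Runx1, -1.25 for Cldn5, 1.21 for Angpt2 and 1.70 for Vwf, which all kept their calls. The Gata4 feature read 4.83, 5.28, 5.12, 5.17 and 5.03 in Gata4 samples 1 to 5 and 4.85, 4.93, 4.80, 4.57 and 4.59 in EV samples 1 to 5. The groups overlapped, with a difference of 0.34 ± 0.09 (SE; limma, adjusted p = 0.017) that did not pass an exact permutation test adjusted over all genes (adjusted p = 0.087). Since the cDNA was codon-optimised, this feature need not read the transgene and checks the labels only weakly. All 10 endothelial markers examined lay above the median level of all genes. Of these 5 were lower and 3 higher, so that 80.0% passed, where 46.0% of all genes above the median level and 25.6% of all genes did. Kdr, Cldn5 and Esam fell by 1.18, 1.04 and 0.70, and Tek, Tie1 and Emcn rose by 1.53, 0.34 and 0.20. The summed signal of the 10 markers was 15.20 to 15.25 (log2) in the Gata4 samples and 15.36 to 15.47 in the EV samples. This sum adds unlogged signal, so Cdh5 (mean 13.58 in Gata4 and 13.83 in EV samples) weighs most. Its EV values lay near the highest value on the arrays, where a level may be only bounded.

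Markers of other cells were mostly at low values. Of 8 blood cell markers 7, of 8 smooth muscle and pericyte markers 7, and of 6 fibroblast and 6 epithelial markers 4 each lay below the median level of all genes. Some markers moved between the groups: Cd68, a lysosomal protein of macrophages, fell by 1.22, Pdgfra by 1.01, Acta2 by 0.76 and Cnn1 by 0.50, while Ocln, also a tight junction gene of brain endothelium, rose by 3.01, Dcn by 0.33 and Rgs5 by 0.32. Cnn1, Dcn and Rgs5 had group means below the median of all array values, where background can make up the signal. The log2 summed signal was 7.67 to 7.97 in Gata4 and 8.66 to 8.91 in EV samples for the blood cell list, 7.32 to 7.46 and 7.39 to 8.39 for the smooth muscle list, 6.37 to 6.54 and 6.63 to 7.06 for the fibroblast list, and 9.87 to 9.97 and 7.39 to 7.88 for the epithelial list. These sums add unlogged signal, so the highest gene weighs most. It was Ocln in the epithelial list (mean 9.78 in Gata4 and 6.78 in EV samples) and Cd68 in the blood cell list (7.30 and 8.53). In the smooth muscle list it was Acta2 (6.36 and 7.12). The other 5 epithelial and 7 blood cell markers did not pass the test. Array values have no zero, and the leukocyte marker Ptprc (2.78 and 2.90), the epithelial marker Epcam (3.03 and 2.94) and the pericyte marker Pdgfrb (3.33 and 3.27) lay below 4.14, the median of all values on the arrays. Their part in the differences of the ETS factors was not tested. In bulk RNA a smaller share of cells with a transcript and less of it per cell cannot be told apart.

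Promoter sequence from RefSeq (GRCm38.p6) was held for 8 of the members, in 12 windows that end at an annotated transcription start. They are shown for Ets2 and Etv6, which rose, for Elf4, which fell, and for the start site of Erg that holds the only GATA hexamer among the members. The windows are the 250 bases before the start, 5′ to 3′ on the gene's strand. Capitals mark hexamers AGATAA or TGATAA, which GATA factors bind, and CCGGAA or CAGGAA, which ETS factors bind, on either strand.
Ets2 (chr16:95702157-95702406, strand +): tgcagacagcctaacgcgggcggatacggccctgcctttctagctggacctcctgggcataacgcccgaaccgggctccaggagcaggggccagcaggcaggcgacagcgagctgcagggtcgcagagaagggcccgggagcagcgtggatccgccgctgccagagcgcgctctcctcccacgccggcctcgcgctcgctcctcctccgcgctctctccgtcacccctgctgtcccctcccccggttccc
Etv6 (chr6:134035450-134035699, strand +): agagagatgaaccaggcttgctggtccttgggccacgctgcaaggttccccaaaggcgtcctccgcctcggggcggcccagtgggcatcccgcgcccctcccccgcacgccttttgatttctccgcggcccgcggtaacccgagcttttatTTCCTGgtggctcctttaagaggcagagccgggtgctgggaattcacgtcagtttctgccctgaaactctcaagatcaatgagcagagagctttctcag
Elf4 (chrX:48463133-48463382, strand -): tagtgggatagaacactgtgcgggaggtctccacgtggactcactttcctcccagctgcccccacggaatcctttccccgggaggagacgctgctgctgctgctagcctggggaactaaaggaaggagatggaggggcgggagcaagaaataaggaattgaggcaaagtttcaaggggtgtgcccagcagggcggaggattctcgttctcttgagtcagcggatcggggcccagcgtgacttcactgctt
Erg (chr16:95459349-95459598, strand -): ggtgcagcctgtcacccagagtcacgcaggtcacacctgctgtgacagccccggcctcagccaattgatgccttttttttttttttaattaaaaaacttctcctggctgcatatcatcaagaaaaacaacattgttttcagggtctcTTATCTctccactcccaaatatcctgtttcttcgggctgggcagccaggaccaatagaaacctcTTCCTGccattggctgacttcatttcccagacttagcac
The Ets2 window and both Elf4 windows held none of these letters. The Etv6 window held 1 CAGGAA on the opposite strand, 94 to 99 bases before the start. The Erg window lies inside the gene at the third of 3 listed starts and held AGATAA 98 to 103 bases and CAGGAA 34 to 39 bases before the start, both on the opposite strand. Over the members 1 of 12 windows held a GATA hexamer, 1 CCGGAA and 5 CAGGAA. Of all 32851 windows of this length 16.6% held a GATA hexamer, 12.0% CCGGAA and 25.7% CAGGAA. A match describes letters in these windows and no binding was measured.

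Ets1 and Ets2 encode the founding members of the family, which carry a Pointed domain and an ERK phosphorylation site. Ets2 read 12.08, 12.04, 11.99, 12.00 and 12.06 in Gata4 samples 1 to 5 and 11.08, 10.96, 11.22, 11.22 and 11.32 in EV samples 1 to 5. Every Gata4 sample lay above every EV sample, and the 2 lowest values were those of EV samples 1 and 2. The means were 12.04 ± 0.04 and 11.16 ± 0.14 (SD, n = 5), so Ets2 rose 1.84-fold (95% interval 1.66 to 2.03), by 0.88 ± 0.07 (SE; limma, adjusted p = 4.9e-07). Without EV samples 1 and 2 the difference was 0.78.

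Ets1 read 10.17, 10.18, 10.05, 10.18 and 10.32 in the Gata4 samples and 9.49, 9.42, 9.35, 9.39 and 9.34 in the EV samples. The groups were again fully apart, and here EV samples 1 and 2 were the highest of their group. Ets1 rose from 9.40 ± 0.06 to 10.18 ± 0.09 (SD, n = 5), by 0.78 ± 0.06 (SE) or 1.71-fold (limma, adjusted p = 3.2e-07). The pair changed by amounts that could not be told apart. The within-sample difference Ets2 minus Ets1 was 1.86 ± 0.08 in Gata4 and 1.76 ± 0.19 in EV samples, a change of 0.10 ± 0.09 (SE; exact two-sided permutation test over all assignments of the samples, p = 0.33). It was -0.03 without EV samples 1 and 2.

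Erg and Fli1 are the closest relatives within the family and keep endothelial genes active in the adult vessel wall. Fli1 read 12.27, 12.33, 12.22, 12.19 and 12.22 in the Gata4 samples and 11.81, 11.72, 12.03, 12.01 and 12.08 in the EV samples. All Gata4 values were higher, and EV samples 1 and 2 lay below the other 3. Fli1 rose from 11.93 ± 0.15 to 12.25 ± 0.06 (SD, n = 5), by 0.32 ± 0.07 (SE) or 1.25-fold (limma, adjusted p = 0.0047). Without EV samples 1 and 2 the rise was 0.21 (limma, adjusted p = 0.020).

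Erg read 10.91, 10.94, 10.96, 10.92 and 10.90 in the Gata4 samples and 10.96, 10.99, 11.00, 10.98 and 11.04 in the EV samples. The groups met at 10.96. The means were 10.93 ± 0.02 and 10.99 ± 0.03 (SD, n = 5). The difference of -0.07 had a 95% interval of -0.16 to 0.02 and did not pass the test (limma, adjusted p = 0.30). Tested alone it gave p = 0.016 in the exact permutation test, or 0.064 adjusted over all genes, and its sign turned (0.02) when the arrays were scaled to reference genes.

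The relatives Erg and Fli1 differed in their change. Erg minus Fli1 was -1.32 ± 0.05 in the Gata4 and -0.93 ± 0.14 in the EV samples, a change of -0.38 ± 0.07 (SE). The exact two-sided permutation test gave p = 0.0079, the smallest it allows (adjusted p = 0.0099 over the 5 pairs compared). As printed, no Gata4 value of Erg lay above an EV value, and Fli1 was higher in every Gata4 sample. The groups therefore had to be apart for this pair, and the p-value adds nothing to the single-gene values. In the mouse genome Erg and Ets2 lie next to each other on chromosome 16, and Fli1 and Ets1 on chromosome 9, each with 0 annotated protein-coding genes between the members of the pair. On chromosome 9 both neighbours rose. On chromosome 16 Ets2 rose and Erg did not pass: Erg minus Ets2 was -1.11 ± 0.05 in Gata4 and -0.16 ± 0.13 in EV samples, a change of -0.94 ± 0.06 (SE; exact permutation test, p = 0.0079, adjusted p = 0.0099). The p-value of Erg minus Ets2 was fixed in the same way, since Ets2 was also higher in every Gata4 sample. Without EV samples 1 and 2 the changes were -0.29 for Erg minus Fli1 and -0.86 for Erg minus Ets2.

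**Figure D2:**
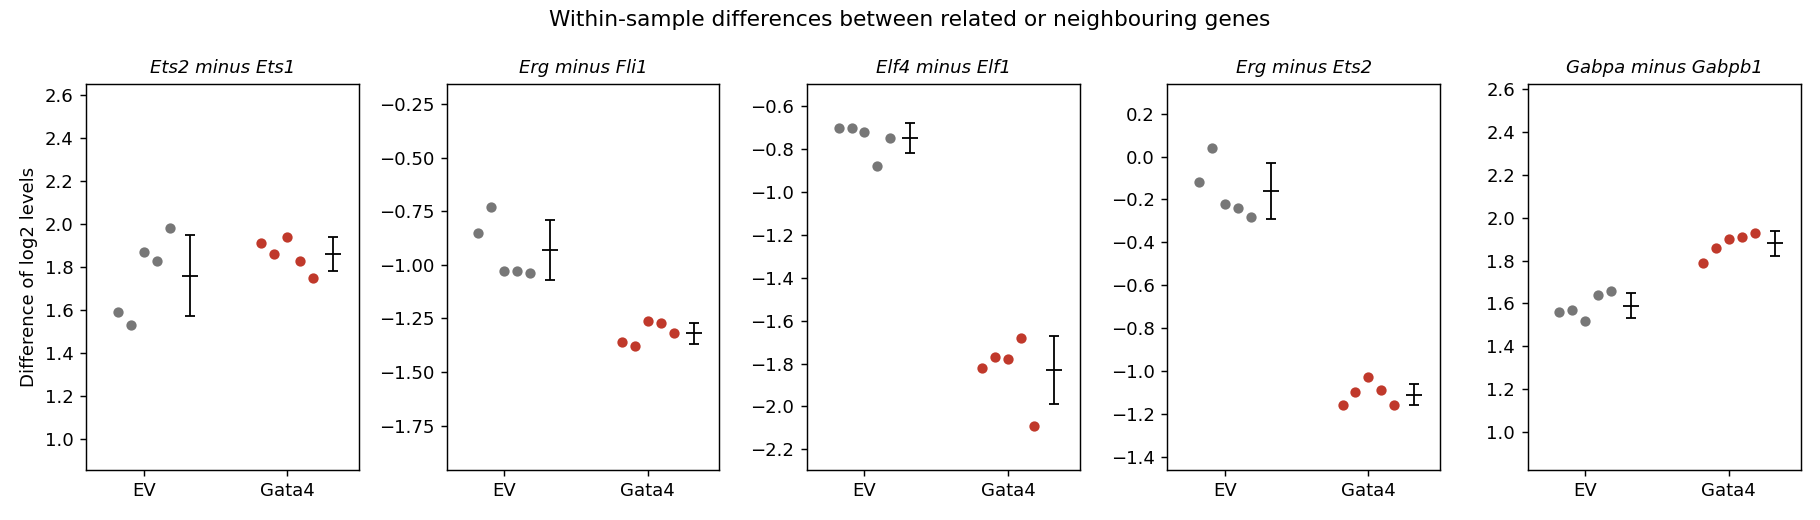
Difference between the log2 levels of 2 genes in the same sample, for 5 pairs of related or neighbouring genes in the EV (grey) and Gata4 (red) samples, with the mean and SD in black; every panel spans 1.8 log2 units. The groups are apart for 4 pairs and overlap for Ets2 minus Ets1; zero on an axis has no meaning of equal abundance, since features differ in their response.

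Elf1 and Elf4 belong to the ELF group. ELF1 acts in blood and vessel development, and ELF4 is known for restraining the proliferation of T cells and for activating interferon genes. Elf1 read 9.99, 10.11, 10.03, 9.99 and 10.14 in the Gata4 samples and 9.51, 9.54, 9.54, 9.64 and 9.54 in the EV samples. No values overlapped, and EV sample 4 was the highest of its group. The rise from 9.56 ± 0.05 to 10.05 ± 0.07 (SD, n = 5) was 0.50 ± 0.05 (SE), or 1.41-fold (limma, adjusted p = 6.5e-06).

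Elf4, the only member that fell, read 8.17, 8.34, 8.26, 8.31 and 8.05 in the Gata4 samples and 8.81, 8.84, 8.82, 8.77 and 8.80 in the EV samples. All Gata4 values were lower, and they were spread more widely than the EV values. The level went from 8.81 ± 0.03 to 8.23 ± 0.12 (SD, n = 5), a difference of -0.58 ± 0.06 (SE; limma, adjusted p = 7.2e-06). Elf4 minus Elf1 was -1.83 ± 0.16 in Gata4 and -0.75 ± 0.07 in EV samples. This change of -1.08 ± 0.08 (SE) was the largest of the 5 pairs (exact permutation test, p = 0.0079, adjusted p = 0.0099). With Elf4 lower and Elf1 higher in every Gata4 sample, the groups had to be apart for this pair. Its p-value was thereby fixed and adds nothing to the single-gene results.

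Etv6 and Elk3 encode factors that repress transcription in many settings. ETV6, also called TEL, recruits corepressors through its Pointed domain, and ELK3, also called NET, is a ternary complex factor that binds with SRF and can switch to activation when phosphorylated. Etv6 read 9.49, 9.48, 9.44, 9.49 and 9.43 in the Gata4 samples and 9.11, 9.00, 9.18, 9.08 and 9.18 in the EV samples. All Gata4 values lay above 9.18, the highest EV value. The rise from 9.11 ± 0.08 to 9.47 ± 0.03 (SD, n = 5) was 0.35 ± 0.05 (SE), or 1.28-fold (limma, adjusted p = 0.00012).

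Elk3 read 10.84, 10.73, 10.64, 10.61 and 10.75 in the Gata4 samples and 10.53, 10.50, 10.56, 10.62 and 10.68 in the EV samples. The ranges overlapped between 10.61 and 10.68. The difference of 0.14 had a 95% interval of 0.01 to 0.26 before adjustment and did not pass after it (limma, adjusted p = 0.11). It passed with a trend and robust variances (limma, adjusted p = 0.043) and when scaled to reference genes (limma, adjusted p = 0.024), and it was 0.10 without EV samples 1 and 2.

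Etv2, the factor that starts the endothelial programme in the embryo and is silent in most mature endothelium, read 3.59 to 3.86 in the Gata4 and 3.74 to 3.85 in the EV samples. All 10 values lay below 4.14, the median of all array values, where background can make up the signal. The difference of -0.12 did not pass the test (limma, adjusted p = 0.18); without Gata4 sample 4, the highest of its group, it was -0.16 and passed (limma, adjusted p = 0.030).

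Gabpa encodes the DNA-binding subunit of GABP, which binds with a beta subunit encoded by Gabpb1 or Gabpb2 and is known for activating genes of mitochondria. It read 9.68, 9.82, 9.74, 9.64 and 9.77 in the Gata4 samples and 9.66 to 9.69 in the EV samples. The EV values fell within the range of the Gata4 values, and the difference was 0.06 with a 95% interval of -0.04 to 0.16 (limma, adjusted p = 0.45). Gabpb1 had a difference of -0.23 (limma, adjusted p = 0.0052), which did not pass when scaled to reference genes (limma, adjusted p = 0.088). Gabpa minus Gabpb1 rose from 1.59 ± 0.06 to 1.88 ± 0.06, by 0.29 ± 0.04 (SE; exact permutation test, p = 0.0079, adjusted p = 0.0099). The groups were already apart for Gabpb1 alone. Gabpb2, the other beta subunit gene, had a difference of 0.04 and did not pass (limma, adjusted p = 0.73). Its value was added after it was seen, and Gabpa minus Gabpb2 was not tested. Of 5 mitochondrial genes known as GABP targets, 1 was higher and 4 did not pass, with a median of -0.01. Cox4i1, a subunit gene of cytochrome c oxidase, rose by 0.20 ± 0.05 (SE). Thus 20.0% passed, where 25.6% of all genes and 46.0% of those above the median level did, and 4 of the 5 lie above that level. Both group means of Cox5b lay below 4.14, the median of all array values. Tfb2m lay near it, at 4.22 in Gata4 and 4.14 in EV samples. Background can make up the signal at such levels, so a change in Cox5b or Tfb2m could be missed.

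Of 15 other ETS genes measured, 2 were higher and 2 lower, or 26.7%, close to the 25.6% of all genes, with a median of -0.03; 7 of the 15 lay below the median level of all genes. Etv3 and Erf, which encode related repressors of the family, both rose. Etv3 read 8.18 to 8.30 in the Gata4 and 7.45 to 7.75 in the EV samples, a rise of 0.66 ± 0.06 (SE) or 1.58-fold (limma, adjusted p = 4.7e-06). Erf read 6.49 to 6.65 and 6.21 to 6.37, a rise of 0.28 ± 0.05 (SE; limma, adjusted p = 0.0011). Etv4 and Etv5, factors of the PEA3 group that respond to FGF signals, were both lower, Etv4 by 0.50 ± 0.10 (SE; limma, adjusted p = 0.0024) and Etv5 by 0.23 ± 0.07 (SE; limma, adjusted p = 0.038). Etv5 overlapped between the groups and lost its call in 10 of 19 alternative settings. Etv1, named after its values were seen as the remaining PEA3 gene, had a difference of 0.02 at a level near the median of all values. Whether the 10 members differed from these 15 genes was not tested.

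**Figure D3:**
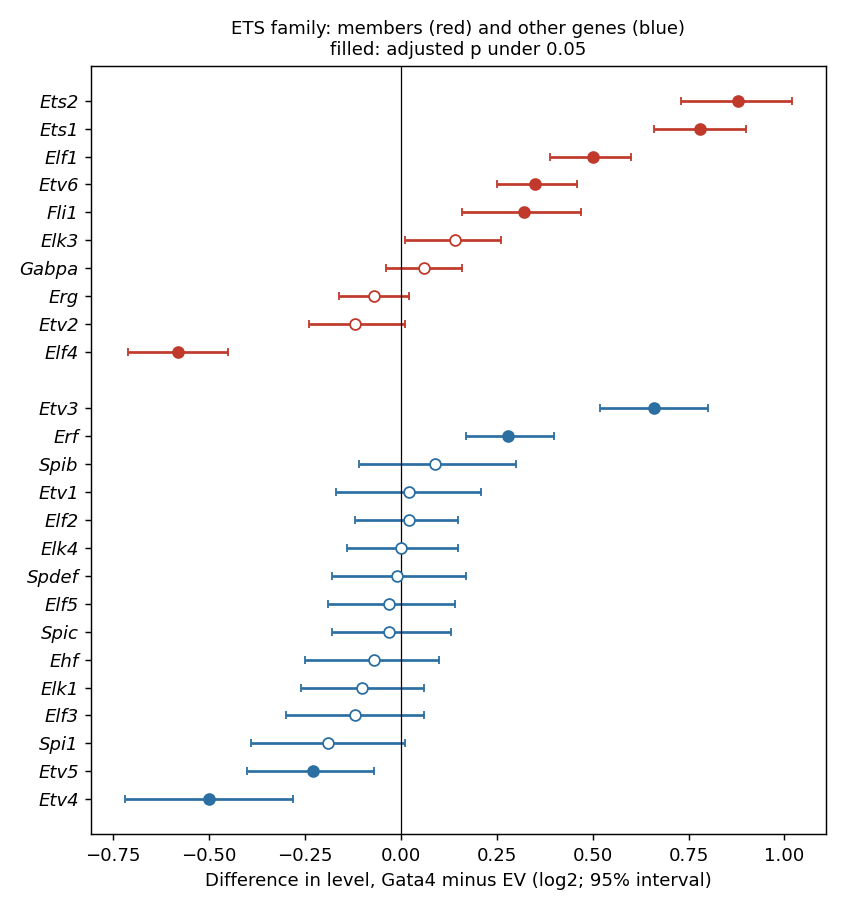
Difference in level, Gata4 minus EV (log2), with its 95% interval for the 10 members (red) and 15 other ETS genes (blue); filled points passed an adjusted p under 0.05. Members run from -0.58 (Elf4) to 0.88 (Ets2), and the other genes from -0.50 (Etv4) to 0.66 (Etv3).

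Genes for partners and regulators of ETS proteins were also examined. Of 14 measured, all above the median level, 1 was higher, 6 were lower and 7 did not pass, with a median of -0.07; scaled to reference genes 1 was higher and 3 were lower. The 7 that passed are 50.0% of the list, near the 46.0% of all genes above the median level. Runx1, whose protein binds DNA together with ETS1, fell from 7.02 ± 0.40 to 5.54 ± 0.14 (SD, n = 5), by 1.48 ± 0.16 (SE) or 2.78-fold (limma, adjusted p = 1.3e-05). Its EV samples ranged from 6.42 to 7.44 and lay above all Gata4 samples. Jun, an AP-1 subunit that joins ETS factors on shared sites, fell by 0.99 ± 0.08 (SE) or 1.98-fold. Srf, the partner of ELK proteins, fell by 0.39 ± 0.05 (SE). Foxc1, a forkhead factor, rose by 0.18 ± 0.05 (SE; limma, adjusted p = 0.018), a call lost with a trend and robust variances (limma, adjusted p = 0.082). The related Foxc2, named after its values were seen, fell by 0.37 ± 0.09 (SE; limma, adjusted p = 0.0095). Its groups overlapped, and it did not pass when scaled to reference genes (limma, adjusted p = 0.056).

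Endothelial genes known to be activated by ETS factors changed in both directions and were lower more often. Of 28 genes, all above the median level, 14 were lower, 6 higher and 8 did not pass, with a median of -0.18; the 20 that passed are 71.4% of the list, where 46.0% of all genes above the median level passed. All endothelial markers examined above except Emcn are also in this list, so the counts of the 2 lists are not separate results. The falls ran from 0.25 to 1.39 on the log2 scale and the rises from 0.34 to 1.88. The smallest fall was that of Cdh5, which read 13.86 in EV samples 1, 2, 4 and 5. This is near 13.93, the highest value on the arrays, where a level may be only bounded. Dll4, a Notch ligand gene of arteries and tip cells, was 8.22 ± 0.14 in Gata4 and 9.61 ± 0.20 in EV samples (SD, n = 5), and the receptor gene Notch4 was 7.43 ± 0.12 and 8.81 ± 0.11. Kdr, the gene of VEGF receptor 2, stood at 10.42 to 10.64 in Gata4 samples and 11.58 to 11.74 in EV samples. Vwf, the von Willebrand factor gene, stood at 7.77 to 8.22 and 5.78 to 6.44, Tek, the TIE2 receptor gene, at 10.33 to 10.47 and 8.65 to 9.10, and Angpt2, a TIE2 ligand gene, at 7.65 to 7.94 and 6.44 to 7.15. The groups were apart for each of these 6 genes, with limma adjusted p from 4.6e-09 (Kdr) to 7.0e-05 (Angpt2). The list was fixed with earlier results of these data known, and these counts do not say which factor acts on which gene.

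**Figure D4:**
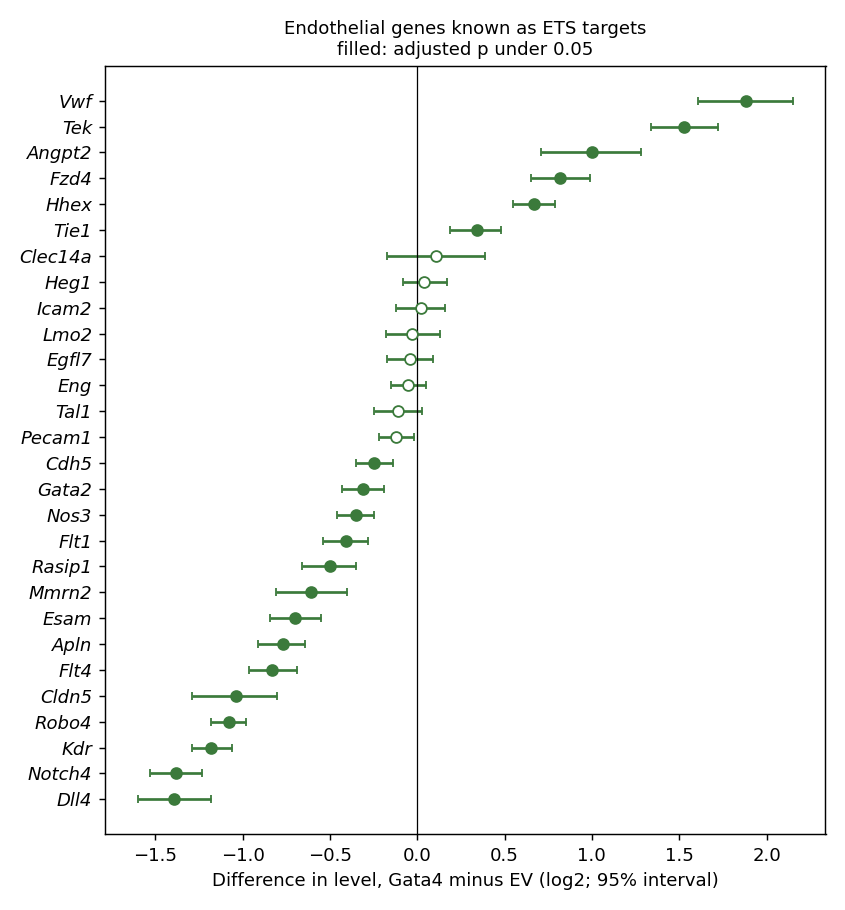
Difference in level, Gata4 minus EV (log2), with its 95% interval for 28 endothelial genes known as ETS targets; filled points passed an adjusted p under 0.05. The genes run from -1.39 (Dll4) to 1.88 (Vwf), with 14 filled points below zero and 6 above.

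Of 6 genes reported to be held down by ERG, 1 was higher, 2 were lower and 3 did not pass, so that 50.0% passed, where 25.6% of all genes and 46.0% of those above the median level did; 4 of the 6 lie above that level. Vcam1, an adhesion receptor gene for leukocytes, rose from 10.15 ± 0.13 to 11.71 ± 0.07 (SD, n = 5), by 1.56 ± 0.07 (SE; limma, adjusted p = 2.5e-09). The contractile genes Acta2 and Cnn1 were lower by 0.76 ± 0.23 (SE; limma, adjusted p = 0.025) and 0.50 ± 0.12 (SE; limma, adjusted p = 0.0086), and both overlapped between the groups. Both genes are also in the smooth muscle list above. Acta2 was highest in EV samples 1 and 2 (7.50 and 7.95 against 6.48 to 6.86 in EV samples 3 to 5), and without them the difference was -0.36. Its call was lost in 4 of 19 settings, among them without Gata4 sample 3 or 5 or EV sample 1 (limma, adjusted p = 0.058, 0.054 and 0.062). Cnn1 had a difference of -0.33 without EV samples 1 and 2, no longer past the threshold. Its means of 3.47 in Gata4 and 3.96 in EV samples lay below 4.14, the median of all array values.

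The genes whose profiles over the 10 samples were most like those of the 3 most changed members were found by the root mean square distance between mean-centred log2 values. For Ets2 they were Zhx3, Rnd3 and Fzd6 (distances of 0.04, 0.04 and 0.06), for Ets1 Rbm18, Slc35f6 and Plscr2 (0.05, 0.07 and 0.07), and for Elf4 Arhgap29, Sash1 and Fam117b (0.07 each). Rnd3 rose by 0.82 and Fzd6, a Wnt receptor gene, by 0.93, beside the 0.88 of Ets2. Arhgap29 fell by 0.54, beside the 0.58 of Elf4. With 2 groups, any gene that differed by a similar amount comes close on this measure.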

How the data were processed

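Expression was measured on Affymetrix arrays in 5 Gata4 and 5 EV samples of bEnd3 cells. The deposited values are log2 levels that the authors made with RMA, per the submitters' processing notes. The build is not given in the sources used here, nor are the RMA version and the probe definitions. All values lay between 2.37 and 13.93, and the number of arrays limits the precision. Of 23748 features, 23111 had 1 gene symbol and 637 had none, and no symbol occurred more than once. Group means were compared with limma 3.58.1 (R 4.3.3; lmFit and eBayes) over all 23111 named features and 10 samples, adjusting p-values by Benjamini-Hochberg and calling those under 0.05. Differences within pairs of genes were compared with an exact two-sided permutation test, adjusted over 5 pairs. The fit was run on simulated data with independent noise and far fewer changed genes than were called here. This checks the code and not the calls. Alternatives were a replicate block, a trend with robust variances, filters on level, other scalings, array weights, a permutation test and samples left out. The members and gene lists were chosen with earlier results of these data known. Named genes were the members, other ETS genes that passed, up to 3 rises and 3 falls per list, Gata4 and the nearest profiles. Promoter letters are from RefSeq (GRCm38.p6). Some genes of the lists were not analysed here.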

Additional observations from a re-analysis of the deposited data

Results flagged for a closer look

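Among the 54 named genes and 5 pairs, 1 sample stood far from the other 4 of its group in 5 of 118 groups examined, by a gap of more than 0.71 of the group's range; chance gives about 1 in 20. Elf1 in EV sample 4 (9.64, others 9.51 to 9.54) also set Elf4 minus Elf1 there (-0.88, others -0.75 to -0.70). Cox4i1 was low in EV sample 4 (10.13, others 10.22 to 10.25). Emcn was low in EV sample 3 (12.41, others 12.50), and Plscr2 was high in Gata4 sample 5 (7.89, others 7.62 to 7.69). For Emcn the other 4 values were equal as printed, so a gap of any size would be flagged and the chance rate does not apply.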

How the results depend on the processing

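The 6 calls among the members held under all 19 alternatives, whereas Erg and Gabpa passed under none. Counts of members called were 6 or 7, with Elk3 or Etv2 as the seventh; leaving out 1 sample gave 1 to 2 members lower. Of 231 values for counts and pairs under alternatives, 223 stayed on the same side or within 1.5 times, as did 999 of 1022 values for single genes. The labels do not say whether the replicate numbers pair the samples. Same-numbered samples deviated with correlations of -0.018 to 0.087, which cannot decide it, since differently numbered samples were not compared. With the replicate block 6 members passed. The paired sign-flip test has 32 assignments and cannot give p under 0.0625, so -0.38 (Erg minus Fli1), -1.08 (Elf4 minus Elf1), -0.94 (Erg minus Ets2) and 0.29 (Gabpa minus Gabpb1) could not pass (adjusted p = 0.078). Without EV samples 1 and 2, chosen after seeing the data, Ets2 minus Ets1 was -0.03. Scaling to 7 reference genes raised every difference by 0.08 and moved the share of higher among all calls from 48.3% to 69.3%; 4 regulators passed instead of 7. Of those reference genes Tbp and Actb were lower and Sdha higher (0.14 and not past the threshold without EV samples 1 and 2); Actb read 13.93, the highest value on the arrays, in all 5 EV samples, where its level is only bounded, and Gapdh read low (3.24 and 3.19). By the exact permutation test 1 of the ERG-repressed genes passed instead of 3.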

Other observations

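Genes that respond to ERK through ETS and SRF sites split evenly: 8 were measured, of which 2 rose, 2 fell and 4 missed the threshold, with a median difference of -0.17; the 50.0% that passed lies near the 46.0% of all genes above the median level, where all 8 lie. The Gata4 samples differed among themselves: Fos read 8.22 and 8.33 in samples 4 and 5 and 6.91 to 7.34 in samples 1 to 3, Egr1 8.32 and 8.43 against 6.92 to 6.93, and Ier2 8.31 and 8.41 against 7.70 to 7.87. Egr1 and Ier2, named after their values were seen, did not pass (limma, adjusted p = 0.54 and 0.38). Fos, an AP-1 subunit gene, rose by 1.62 ± 0.26 (SE) to values of 6.91 to 8.33 in the Gata4 samples against 5.64 to 6.43 in the EV samples (limma, adjusted p = 0.00038). Spry4, an inhibitor of the ERK pathway, rose by 0.52 ± 0.09 (SE; limma, adjusted p = 0.00064). Fosb, another AP-1 subunit gene, fell by 1.11 ± 0.11 (SE; limma, adjusted p = 8.5e-06; a difference of -0.92 without EV samples 1 and 2), and Dusp6, an ERK phosphatase gene, fell by 0.56 ± 0.07 (SE; limma, adjusted p = 5.6e-05). The groups were apart for these 4 genes.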
